A study of Mus musculus with 3 samples.

Results

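Cells with a high level of Acta2, the gene of smooth muscle alpha-actin, were examined among mouse neural progenitors profiled by single-cell RNA sequencing. The 855 Acta2-high cells, of 17920 cells in all, were chosen by their own Acta2 level, more than 1000 CPM (UMIs, unique molecules counted, scaled to a total of 1000000 in the cell or in the cells summed). A cell was a barcode of 3000 or more UMIs and 500 or more genes in which mitochondrial UMIs made up 20% or less. They were compared with the 10047 cells of the same libraries that held 0 Acta2 UMIs, called Acta2-zero cells. The other 7018 cells had Acta2 UMIs up to the threshold.

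The progenitors came from brains of postnatal day 1 mice and were grown as neurospheres with 20 ng/mL human epidermal growth factor and N2 and B27 supplements. Then 50000 cells were plated on poly-D-lysine for 16 h. The 3 groups, of 1 library each, were control cells, cells electroporated in bulk (Lonza 4D Nucleofector, program DS137), and cells electroporated locally, on the device they had grown on, with 400 pulses of 20 V. All were collected with trypsin at 4 h. Strain, sex and number of mice were not given in the sources used here, nor was the surface on which the control had been plated.

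Smooth muscle alpha-actin is the actin isoform of vascular smooth muscle and of myofibroblasts, where it is built into stress fibres that contract. Its gene is a textbook target of serum response factor (SRF), which binds CArG boxes together with the actin-sensing MRTF coactivators or, in smooth muscle, with myocardin, and of TEAD factors, which bind MCAT elements. Neural progenitors are not a muscle lineage. They carry the cytoplasmic actins Actb and Actg1, and they give rise to astrocytes, oligodendrocyte precursors and neurons.

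Promoter sequence of Acta2 and Myl9 is shown here because these 2 genes were among those followed below and their windows held more than 1 CArG box. Of 11 contractile and actin genes looked up, 9 had an entry in the RefSeq promoter table (build GRCm38.p6), while Tagln did not. A CArG box was counted with an A- and T-rich core of 6 bases in which up to 1 C or G was allowed, and an MCAT element as GGAATG, both on either strand of the 250 bases before the gene's start. Capitals mark these motifs, which do not overlap.
Acta2, chromosome 19, minus strand, chr19:34255393-34255523: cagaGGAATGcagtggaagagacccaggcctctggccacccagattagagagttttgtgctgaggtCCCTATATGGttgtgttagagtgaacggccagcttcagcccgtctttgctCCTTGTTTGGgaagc
Myl9, chromosome 2, plus strand, chr2:156775299-156775414: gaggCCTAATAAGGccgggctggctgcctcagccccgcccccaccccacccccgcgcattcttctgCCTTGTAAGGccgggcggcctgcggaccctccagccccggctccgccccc
The Acta2 window held an MCAT element at -146 to -141 from the start and CArG boxes at -84 to -75 and -34 to -25, each with 1 C or G in its core. In Myl9 a CArG box at -161 to -152 had no change in its core and another at -99 to -90 had 1. Of the other genes found, Actg1 held 1 CArG box, and Tpm2, Tpm1, Csrp1, Synpo2, Cald1 and Cnn1 held 0. Among 32851 promoters of the same length, 8.59% held a CArG box by this definition, 0.670% held at least 2, and 0.131% held at least 2 together with an MCAT element. Acta2 and Myl9 were picked for their boxes, so these shares do not test them. These matches describe letters and say nothing of binding in these cells.

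The control, bulk and localized libraries held 74429007, 85743257 and 83803032 UMIs, of which 9.10% to 17.0% lay outside cells. Cells numbered 6091, 5531 and 6298 in the same order, with median depths of 9542, 11644 and 10980.5 UMIs. Between 6 and 9 cell barcodes were shared by each pair of libraries, and 0 of them were Acta2-high in both. With 1 library per treatment, no difference between treatments was tested, and intervals of shares and levels cover counting error only.

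Acta2-high cells were a minority in every library and a smaller one after localized electroporation. They made up 352 of 6091 control cells, 5.78% (exact Clopper-Pearson 95% interval 5.21 to 6.39). In bulk electroporation the share was 398 of 5531 cells, 7.20% (6.53 to 7.91). In localized electroporation it was 105 of 6298 cells, 1.67% (1.37 to 2.01), an interval that does not meet the other two. The same order held after each cell was thinned to 3000 UMIs, with 5.14%, 6.76% and 1.78%, and above 500 CPM, with 13.6%, 17.2% and 5.81%.

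Within the group, Acta2 reached a median of 1433 CPM per cell in control (lowest 1002, highest 7883). The median was 1495 in bulk (1001 to 10743) and 1297 in localized electroporation (1002 to 5223). A typical Acta2-high cell held 17, 22 and 15 Acta2 UMIs in these libraries. Their levels ran on from those of the other cells without a gap. From 900 to 1000 CPM there were 52, 62 and 30 cells in the 3 libraries, and from 1000 to 1100 there were 59, 59 and 26. Tagln stood at 267, 369 and 331 CPM just outside the threshold and at 249, 319 and 265 CPM just inside it, in cells summed.

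**Figure D1:**
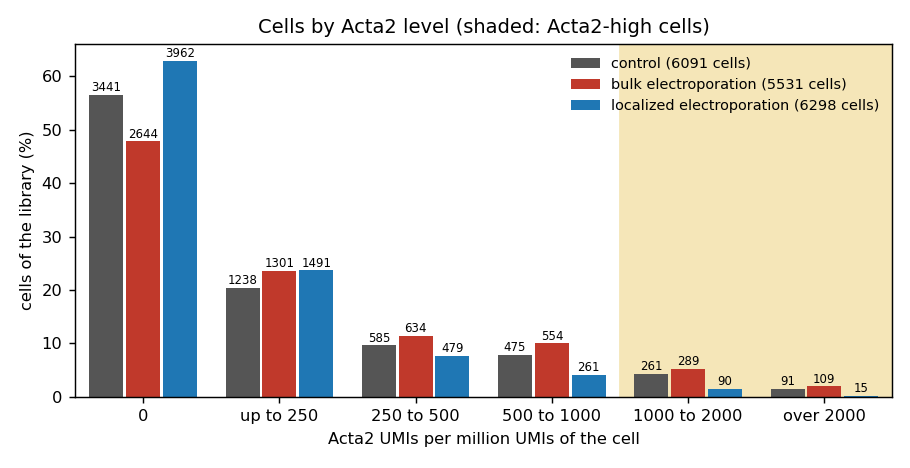
Percent of each library's cells (y) by the Acta2 level of the cell in CPM (x), with the number of cells above each bar; shading marks the Acta2-high cells. Control had 261 and 91, bulk 289 and 109, and localized electroporation 90 and 15 cells in the 2 shaded bins.

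Depth differed between the classes. Median UMIs were 11025.5 in Acta2-high and 8268 in Acta2-zero cells of control, 13557.5 and 9477.5 in bulk, and 10623 and 10335 in localized electroporation. Thinned to 3000 UMIs, Acta2-high cells had a median of 1344.5, 1399 and 1400 genes and Acta2-zero cells of 1358, 1407 and 1428, and median mitochondrial shares were 3.61%, 4.69% and 3.68% against 3.40%, 3.96% and 3.41%. Since a shallow cell reaches 0 Acta2 UMIs more easily, results below were also taken against Acta2-zero cells drawn to match the depth of the Acta2-high cells, an alternative chosen after seeing the data. No doublet caller was run. Cells above 25000 UMIs were 3 of 352, 33 of 398 and 3 of 105 Acta2-high cells in control, bulk and localized electroporation, and leaving out all cells of that depth gave 2023 genes higher and 1752 lower, against 1862 and 1844 with them.

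Free RNA also carried Acta2. Barcodes of 10 to 100 UMIs held it at 114, 141 and 107 CPM in control, bulk and localized electroporation, against 249, 307 and 114 CPM in cells. Acta2 was also looked at in precursor-like cells, those with at least 2 UMIs of 10 oligodendrocyte lineage genes such as Lhfpl3 and Sox10. These 10 genes were chosen after the data were seen, and Lhfpl3 and Sox10 were lower in Acta2-high cells. The shares that follow therefore do not measure how much free Acta2 RNA enters cells. After thinning to 3000 UMIs, 4.96%, 3.24% and 2.61% of cells classed so on thinned counts held an Acta2 UMI, against 29.6%, 33.6% and 19.8% of the other cells (median depths before thinning 5202, 6239 and 7823 against 9847, 11967 and 11174.5 UMIs).

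The first comparison asked which other genes differed between Acta2-high and Acta2-zero cells of the same library. UMIs were summed per library and class, Acta2 was left out, and edgeR's quasi-likelihood test with the library as a block was applied to 13286 genes. At an adjusted p (Benjamini-Hochberg) under 0.05, 1862 genes were higher (14.0% of those tested) and 1844 lower (13.9%), with a median log2 difference of -0.03 over all genes. A 2-fold difference was reached by 237 of the genes called higher and 378 of those called lower. With library totals in place of TMM scaling the split was 1540 higher and 2277 lower, and DESeq2 called 1028 and 681. The p-values rest on the spread of the difference over 3 libraries that also differ in treatment. The test pools that spread across genes, so a gene whose libraries disagree can still be called. Nothing in the labels says that the libraries came from separate animals.

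Tagln, a companion of Acta2 in the contractile apparatus, had the largest increase among genes of at least 50 CPM. Of the 15 genes of the smooth muscle contractile list, which does not include Acta2, 10 were abundant enough to be tested, and 6 rose and 1 fell. Their median log2 difference was 0.39, against -0.03 over all genes, of which 14.0% rose and 13.9% fell. Against depth-matched Acta2-zero cells, where 12.4% of all genes were called higher and 11.1% lower, 4 of 9 rose and 1 fell.

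Tagln encodes transgelin, an actin-binding protein of smooth muscle (GRCm38 chromosome 9, 45929619 to 45936058, minus strand, overlapping Pcsk7 and Gm48529). Its level was 571 CPM in Acta2-high and 16.6 in Acta2-zero cells of control, 489 and 16.1 in bulk, and 395 and 28.8 in localized electroporation. The classes did not overlap, and the difference was a log2 of 4.66 ± 0.12 (SE, adjusted p = 1.07e-21, edgeR quasi-likelihood test with Benjamini-Hochberg adjustment). Over all 18 alternatives it stayed between 3.90 and 5.57 and past the threshold. The Acta2-zero values lay below the Tagln level of the low barcodes, 37.4, 47.7 and 42.3 CPM.

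Myl9, a regulatory light chain of smooth muscle and non-muscle myosin, is the gene whose promoter is printed above. It stood at 25.9 CPM in Acta2-high and 4.73 in Acta2-zero cells of control, at 31.1 and 4.95 in bulk, and at 37.1 and 5.64 in localized electroporation. Every Acta2-high value was above every Acta2-zero value, a log2 difference of 2.64 ± 0.13 (SE, edgeR adjusted p = 2.93e-15). For Tpm2, a tropomyosin that lies along actin filaments, the levels were 7.25 and 1.82 CPM, 11.3 and 2.31 CPM, and 9.07 and 3.24 CPM in the same order. That was a log2 difference of 2.07 ± 0.22 (SE, edgeR adjusted p = 1.80e-08) on 30, 67 and 11 UMIs in the Acta2-high cells. Tpm2 missed the threshold when cells with 3 or more oligodendrocyte-lineage UMIs were left out (log2 difference 1.17, edgeR adjusted p = 0.284), a setting that removed most cells, and Tagln and Myl9 did not.

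Smaller differences were found in Tpm1, another tropomyosin, which rose by a log2 of 0.19 ± 0.05 (SE, edgeR adjusted p = 0.00247) and was higher in 3 of 3 libraries. Synpo2, an actin-bundling protein, rose by 1.13 on the log2 scale, and Csrp1, a LIM protein of smooth muscle, by 0.33, but each lost its call in 9 of 18 alternatives, among them depth-matched cells (edgeR adjusted p = 0.113 and 0.0564). Synpo2 did so without control (0.459) or bulk (0.0777), and Csrp1 without the localized library (0.196). Csrp1 was higher in 2 of 3 libraries, at 28.3 against 29.2 CPM in control and at 60.2 against 32.9 CPM in localized electroporation. Cald1, caldesmon, which binds actin and myosin, fell by 0.26 on the log2 scale (edgeR adjusted p = 0.00487) and was lower in 3 of 3 libraries, but lost its call in 6 of 18 alternatives, among them without control (0.0568), without bulk (0.283) and with DESeq2 (0.127). Smtn, Mylk and Cnn1, which encode smoothelin, myosin light chain kinase and calponin 1, did not pass the test, with log2 differences of 0.01, 0.41 and 0.37.

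The label contractile-like was checked against genes that define smooth muscle. The data go against a smooth muscle identity, although Tagln, Myl9 and Tpm2 rose. Over all 855 Acta2-high cells there was 1 UMI of Myh11, the smooth muscle myosin heavy chain, 4 of Cnn1, 4 of Actg2, the enteric smooth muscle actin, and 3 of Lmod1. Des, desmin, and Myocd, myocardin, had 0 UMIs there. The Acta2-zero cells, which held more UMIs in all, had 6, 42, 20, 6, 34 and 1 UMIs of these genes in the same order. Such counts are too few to rank the classes. The cells are therefore called Acta2-high throughout.

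The cytoplasmic actins did not pass the test. Actb stood at 4520 and 5047 CPM in Acta2-high and Acta2-zero cells of control, at 3808 and 4205 in bulk, and at 3636 and 3509 in localized electroporation. Neither Actb (log2 difference -0.04, edgeR adjusted p = 0.395) nor Actg1 (-0.06, 0.494) passed the test. Without the localized library, in which both were higher in Acta2-high cells, both were called lower (log2 differences -0.10 and -0.19, edgeR adjusted p = 1.80e-06 and 1.05e-15). Actc1, the cardiac isoform, fell by 2.30 on the log2 scale (edgeR adjusted p = 5.11e-05) from levels of 3.63 to 6.19 CPM in Acta2-zero cells, and lost its call after thinning.

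**Figure D2:**
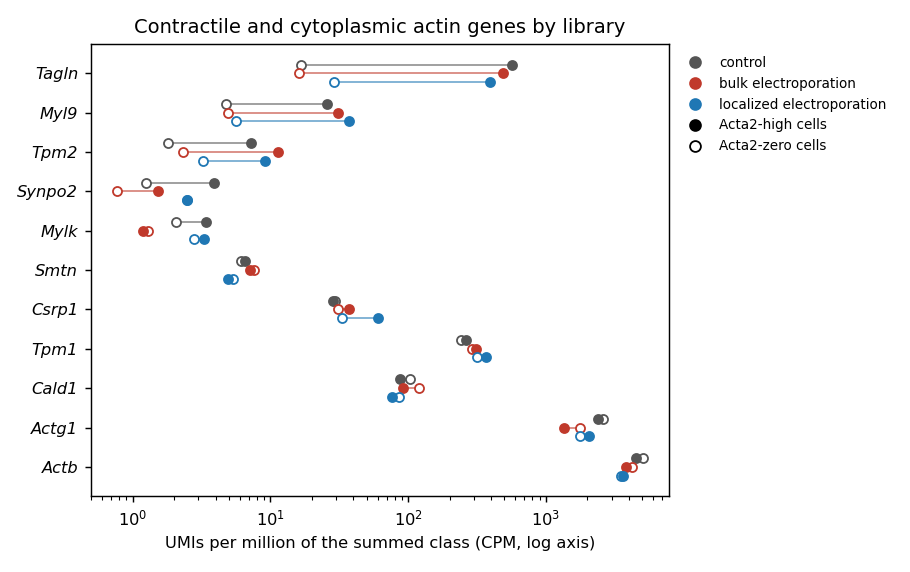
Levels in CPM (x, log axis) of 9 contractile genes and both cytoplasmic actins (y) in the summed Acta2-high cells (filled points) and Acta2-zero cells (open points) of each library, by colour. Tagln, Myl9 and Tpm2 were higher in the Acta2-high cells of every library, from 570.9 against 16.6 CPM for Tagln in control to 9.07 against 3.24 CPM for Tpm2 in localized electroporation.

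Markers of other cells that make smooth muscle alpha-actin were near 0. Of 10 mural cell markers, 4 had 0 UMIs in every Acta2-high and Acta2-zero cell (Vtn, Higd1b, Anpep and Tbx18). Pdgfrb had 1 UMI and Rgs5 had 4 UMIs in all Acta2-high cells. Summed over the list, the level was 13.5 to 15.7 CPM in Acta2-high and 5.87 to 7.68 CPM in Acta2-zero cells, and most of it was Notch3, which rose by a log2 of 1.28 ± 0.16 (SE, edgeR adjusted p = 4.60e-07). Notch3 is a receptor of mural cells that neural progenitors also express.

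Fibroblast, endothelial and microglial markers gave the same picture. Dcn, Lum and Dpt of the 8 fibroblast and meningeal markers had 0 UMIs, and the list summed to 2.47 to 3.88 CPM in Acta2-high and 2.18 to 3.20 CPM in Acta2-zero cells. Among the 8 endothelial markers Cldn5 had 0 UMIs, Cdh5 had 0 in Acta2-high cells, and Pecam1 had 3. Flt1, a receptor for vascular growth factor, was the member that passed the filter and rose, at 4.95 to 5.57 CPM against 1.39 to 2.45 CPM (log2 difference 1.73 ± 0.28 SE, edgeR adjusted p = 1.48e-05), and it lost its call in 2 of 18 alternatives. All 9 microglia and macrophage markers had 0 UMIs in Acta2-high cells. The 6 ependymal markers summed to 10.6, 20.3 and 13.2 CPM in Acta2-high and 6.41, 11.1 and 7.23 CPM in Acta2-zero cells of control, bulk and localized electroporation. Of these, 3 were tested and 3 rose, where 14.0% of all genes rose. Against depth-matched cells, where 12.4% of all genes rose, 1 of 3 did.

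Acta2-high cells differed among themselves in Tagln. A Tagln UMI was found in 81.5%, 83.2% and 82.9% of them in control, bulk and localized electroporation, against 7.85%, 7.68% and 13.8% of Acta2-zero cells. After thinning to 3000 UMIs the shares were 59.4%, 56.0% and 50.5% against 3.25%, 3.14% and 6.03%. Per cell the median Tagln level was 324, 297 and 265 CPM in the same order, with upper quartiles of 820, 647 and 635. The Acta2 threshold thus took in a wide range of Tagln levels.

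The overlap of the highest cells depended on the library. Tagln exceeded 1000 CPM in 64, 56 and 10 Acta2-high cells of control, bulk and localized electroporation, which is 18.2%, 14.1% and 9.52% of them. These made up 71.9% of all 89 such Tagln cells in control (exact Clopper-Pearson 61.4 to 80.9), 74.7% of 75 in bulk (63.3 to 84.0) and 22.2% of 45 in localized electroporation (11.2 to 37.1). In the localized library 11 of those 45 cells held 0 Acta2 UMIs, against 2 of 89 and 1 of 75 in the others.

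Acta2-high cells without a Tagln UMI (65, 67 and 18 in control, bulk and localized electroporation) were slightly shallower (median 10029 against 11214 UMIs in control). They held Myl9 at 22.2, 18.7 and 16.3 CPM, against 26.6, 33.0 and 40.8 CPM in those with Tagln, from 3 to 15 UMIs. Apoe stood at 225, 259 and 1208 CPM without Tagln and 361, 419 and 1307 CPM with it. Both sets lay above the Acta2-zero cells in these genes, while their difference was not tested.

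Levels also rose stepwise with Acta2 below the threshold. Tagln went from 16.6 CPM at 0 Acta2 UMIs through 58.7, 144 and 205 CPM in the bins up to 250, 250 to 500 and 500 to 1000 Acta2 CPM of control, and on to 451 and 916 CPM at 1000 to 2000 and over 2000. Bulk reached 890 CPM and localized electroporation 799 CPM in the top bin. Lhfpl3, a gene of oligodendrocyte precursors, followed another shape: it dropped from 80.2 to 21.1 CPM between 0 and the first bin of control and stood at 9.67, 7.28, 7.24 and 4.69 CPM in the bins after it. The top bin of localized electroporation held only 15 cells. Depth was not matched across bins. In control the median was 8268 UMIs at 0 Acta2 UMIs and 11042 in cells with Acta2 up to the threshold.

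**Figure D3:**
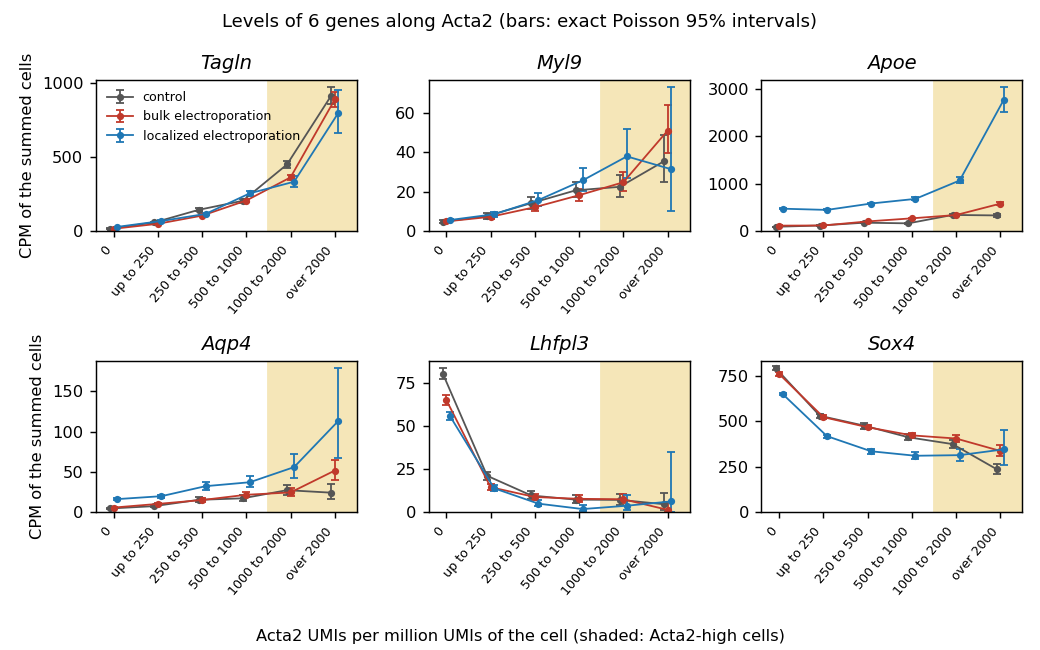
Levels in CPM (y) of 6 genes in cells summed by the Acta2 level of the cell in CPM (x), one line per library, with exact Poisson 95% intervals and shading over the Acta2-high cells. Tagln climbed to 916, 890 and 799 CPM in the top bin, Apoe was highest in the localized library (2774 CPM in the top bin), and Lhfpl3 was highest at 0 Acta2 UMIs.

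Astrocyte genes were higher in Acta2-high cells across nearly the whole list. Of 13 astrocyte markers tested, 11 rose and 1 fell, with a median log2 difference of 0.96, where 14.0% of all genes rose and 13.9% fell. Against depth-matched Acta2-zero cells, where 12.4% of all genes rose and 11.1% fell, the counts were again 11 and 1. Summed over the list, the level was 918 CPM in Acta2-high and 429 in Acta2-zero cells of control, 992 and 428 in bulk, and 2282 and 1033 in localized electroporation. Without the cells carrying 3 or more oligodendrocyte-lineage UMIs, where 1.70% of all genes were called higher and 0.846% lower, 5 of 12 rose and 0 fell.

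Apoe, an apolipoprotein secreted by astrocytes, stood at 339 against 92.5 CPM in control, 397 against 116 after bulk and 1292 against 474 after localized electroporation. Its log2 difference was 1.74 ± 0.05 (SE, edgeR adjusted p = 2.88e-20), and Acta2-high cells were higher within each library, while the classes overlapped across libraries. Aqp4, the water channel of astrocyte endfeet, stood at 26.6 against 4.69, 31.1 against 5.83 and 63.5 against 16.3 CPM, a log2 difference of 2.33 ± 0.12 (SE, edgeR adjusted p = 1.08e-14). Clu, clusterin, had a log2 difference of 1.74 and Gfap, an astrocyte intermediate filament, of 1.48. S100b, which oligodendrocyte precursors also express, was the member that fell, by 1.35 on the log2 scale, and without precursor-like cells its difference was 0.98 (edgeR adjusted p = 0.0627).

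The 12 largest increases among genes of at least 50 CPM that moved the same way in 3 of 3 libraries were Tagln, Chchd10, Apoe, Slc4a4, Cryab, Mt3, Sdc4, S100a11, Igfbp2, Cst3, Mlc1 and Pdlim4. Mt3, a zinc-binding metallothionein of brain, stood at 2030, 2163 and 2191 CPM in Acta2-high and 763, 812 and 1091 CPM in Acta2-zero cells of control, bulk and localized electroporation. Cst3, the protease inhibitor cystatin C, stood at 1106, 1210 and 2430 CPM against 445, 497 and 1160 CPM. Several of these are genes of astrocytes or radial glia, such as Slc4a4, a bicarbonate transporter (log2 difference 1.42), and Mlc1, a membrane protein of astrocyte endfeet (1.21).

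Among the rest of the 12, Chchd10, a mitochondrial protein gene that overlaps Mmp11 and Gm867, had a log2 difference of 1.88 and Cryab, a small heat shock protein, of 1.40. Igfbp2, which binds insulin-like growth factors, had 1.28, Sdc4, a heparan sulfate proteoglycan of focal adhesions, 1.32, and Pdlim4, which binds actinin, 1.15. All 12 stayed past the threshold against depth-matched Acta2-zero cells without precursor-like cells, where Pdlim4 was at 0.76 and Tagln at 4.25 (edgeR quasi-likelihood test).

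Progenitor genes were split. Of 15 neural stem and progenitor markers 6 rose and 2 fell, where 14.0% of all genes rose and 13.9% fell. Id3 and Id1, inhibitors of differentiation downstream of BMP signalling, rose by a log2 of 0.85 and 0.71. Hes5, a Notch target, rose by 0.82 and Slc1a3, a glutamate transporter of radial glia and astrocytes, by 0.67, each higher in 3 of 3 libraries. Hes5 ranged with the library as well, at 136, 44.0 and 322 CPM in the Acta2-high cells and 76.9, 28.9 and 179 CPM in the Acta2-zero cells of control, bulk and localized electroporation.

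Genes of the oligodendrocyte lineage were lower as a whole. All 10 tested oligodendrocyte precursor markers and all 4 tested oligodendrocyte markers fell, where 13.9% of all genes fell. Their median log2 differences were -3.30 and -2.59. Single precursor markers ranged from -4.68 to -0.48. Summed, the precursor list fell less, at 430 against 794 CPM in control, 526 against 909 in bulk and 564 against 1100 in localized electroporation. These are log2 ratios of -0.88, -0.79 and -0.96. Lhfpl3 stood at 6.53 against 80.2 CPM in control, 6.08 against 64.9 in bulk and 4.12 against 55.7 in localized electroporation, a log2 difference of -3.49 ± 0.13 (SE, edgeR adjusted p = 9.71e-19). Sox10, the transcription factor of this lineage, stood at 0.73, 0.84 and 0.82 CPM in Acta2-high cells, from 1 to 5 UMIs, and at 20.5, 16.5 and 46.5 CPM in Acta2-zero cells.

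Precursor-like cells are defined by genes of this lineage, so their share is not independent of these values. It was 1.70% of Acta2-high and 23.7% of Acta2-zero cells in control, 2.26% and 23.1% in bulk, and 0 of 105 (a count of 0 allows up to 2.86%) and 22.5% in localized electroporation. Without those cells, a comparison chosen after seeing the data, 1317 genes were higher and 1145 lower (10.1% and 8.82% of those tested). There 7 of 10 precursor markers and 0 of 3 oligodendrocyte markers fell, with median log2 differences of -1.64 and 0.01. Of the main calls, 1288 of the 1862 higher and 1096 of the 1844 lower genes were called the same way there. With depth matched too, 1069 and 833 were.

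Among the 12 largest decreases of genes of at least 50 CPM were Lhfpl3, Cntn1, an adhesion molecule of axons and oligodendrocyte precursors (log2 difference -2.54), Vcan, the proteoglycan versican (-1.49), and Gria2, an AMPA receptor subunit (-1.29). Basp1 (-1.36) and Gap43 (-1.05), proteins of growth cones, and Sox4, a transcription factor of immature neural cells, were also among them. Sox4 stood at 339, 389 and 318 CPM in Acta2-high and at 793, 760 and 650 CPM in Acta2-zero cells of control, bulk and localized electroporation (log2 difference -1.03 ± 0.05 SE, edgeR adjusted p = 3.00e-16). Without precursor-like cells and with depth matched its difference was -0.56, and Gap43 was at -1.04. Of 9 neuron markers 3 fell, Dcx, Tubb3 and Map2, and 0 rose, where 13.9% of all genes fell and 14.0% rose.

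Dividing cells were present in both classes. Of 16 G2/M genes 10 fell and 0 rose, where 13.9% of all genes fell, with a median log2 difference of -0.21. Top2a, the mitotic topoisomerase, was found in 35.2%, 37.2% and 22.9% of Acta2-high cells after thinning and in 38.8%, 36.2% and 26.7% of Acta2-zero cells. Mki67 fell by 0.29 on the log2 scale (edgeR adjusted p = 1.01e-04), from 233, 254 and 169 CPM in Acta2-zero to 184, 209 and 122 CPM in Acta2-high cells. Against depth-matched cells, where 11.1% of all genes were called lower, 14 of 16 G2/M genes fell. With DESeq2, which called 5.13% of all genes lower and 7.74% higher, 4 did. Of 19 S phase genes 2 rose and 0 fell in the main test, where 14.0% of all genes rose and 13.9% fell.

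The machinery that controls Acta2 in muscle was only partly higher. Of 12 tested factors of the SRF, MRTF, YAP and SMAD list, 6 rose and 1 fell, with a median log2 difference of 0.36. Over all genes, 14.0% rose and 13.9% fell. Wwtr1, the YAP paralog TAZ, rose by a log2 of 0.59, Mrtfb by 0.58, Smad3 by 0.52 and Tead2, a DNA-binding partner of YAP, by 0.44. Mrtfb and Tead2 were higher in 2 of 3 libraries, and Srf itself (-0.43) did not pass the test. Smad3 lost its call in 11 of 18 alternatives, among them depth-matched cells (edgeR adjusted p = 0.209), without control (0.101) and without bulk (0.476), Tead2 in 6, and Mrtfb in 2, without bulk (0.145) being 1 of them. Against depth-matched cells, where 12.4% of all genes rose and 11.1% fell, 3 rose and 1 fell. The median log2 difference of the list was 0.098 in that setting.

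Targets and regulators near this machinery varied by list. Of 14 YAP targets, 10 rose and 1 fell, with a median log2 difference of 0.59: Ccn2, the matricellular protein CTGF, rose by 1.44, Myof by 1.20 and Axl, a receptor kinase, by 1.16, while Amotl2, a YAP inhibitor, fell by 1.28. Axl lost its call in 10 of 18 alternatives and Ccn2 in 6, both without control (edgeR adjusted p = 0.170 and 0.0612), and Axl against depth-matched cells too (0.0609). In depth-matched cells, where 12.4% of all genes rose and 11.1% fell, 6 YAP targets rose and 1 fell. Of 25 genes of the actin cytoskeleton and SRF list, 9 rose and 3 fell with a median of 0.09, where 14.0% of all genes rose and 13.9% fell. Actn1, alpha-actinin, rose by 0.70, and Lima1 and Fhl2, LIM proteins that bind actin or SRF partners, had log2 differences of -0.62 and -0.67. Fhl2 was lower in 2 of 3 libraries and lost its call in 13 of 18 alternatives, among them depth-matched cells (edgeR adjusted p = 0.403), without control (0.480) and without bulk (0.322).

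The TGF-beta pathway, an inducer of Acta2 in fibroblasts, showed 2 members higher and 2 lower of 13, near the 14.0% and 13.9% over all genes. Tgfb2, a ligand, rose by a log2 of 0.92 and Thbs1, thrombospondin 1, by 1.65 from levels of 0.50 to 0.93 CPM in Acta2-zero cells. Pmepa1, a feedback inhibitor, fell by 0.47. Thbs1 lost its call in 7 of 17 alternatives, among them without bulk (edgeR adjusted p = 0.263), and Pmepa1 in 8 of 18, among them depth-matched cells (0.0525), without control (0.0921) and without the localized library (0.0503). Of 5 mesenchymal transition factors, Prrx1 rose by 0.47 while Zeb2 and Zeb1 fell by 0.46 and 0.19. Zeb1 lost its call in 6 of 18 alternatives, among them without control (edgeR adjusted p = 0.0532) and without bulk (0.433), and Prrx1 in 4, among them depth-matched cells (0.0949).

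Matrix, adhesion and calcium-binding genes were more often higher than lower, while over all genes 14.0% were higher and 13.9% lower. Of 16 extracellular matrix genes 9 rose and 2 fell. Fn1, fibronectin, stood at 18.1, 20.6 and 23.9 CPM in Acta2-high and 7.47, 7.41 and 9.52 CPM in Acta2-zero cells of control, bulk and localized electroporation, a log2 difference of 1.42. Among 15 integrin and focal adhesion genes 9 rose and 0 fell, led by Cav1, caveolin (1.47), Itgb5 (1.19) and Parva (0.69). Of 15 annexin, S100 and galectin genes 13 rose and 1 fell, with a median of 0.68. S100a11 stood at 250, 406 and 280 CPM against 92.2, 162 and 146 CPM, Lgals3 rose by 1.20 and Anxa2 by 1.10. In depth-matched cells the counts were 7 and 2 of 15 matrix genes, 5 and 1 of 15 adhesion genes, and 11 and 1 of 15 annexin and S100 genes. Over all genes 12.4% were higher and 11.1% lower in that setting.

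Intermediate filaments and lamins gave 3 rises and 1 fall of 7, where 14.0% of all genes rose and 13.9% fell. Lmna, lamin A/C, rose by a log2 of 0.55 and Vim, vimentin, by 0.15, each higher in 2 of 3 libraries, while Lmnb1 fell by 0.46. Vim was at -0.02 once depth was matched and precursor-like cells were left out.

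Stress and metabolic lists moved little or in part. Of 20 genes of the integrated stress response 4 rose and 2 fell, and of 19 p53 targets 1 rose, Fas at a log2 of 1.10, and 4 fell. Of 21 immediate early genes 3 rose and 2 fell. Over all genes, 14.0% were higher and 13.9% lower. Of 14 hypoxia and glycolysis genes 6 rose and 0 fell, among them Vegfa (0.44), which lost its call in 8 of 18 alternatives, including depth-matched cells (edgeR adjusted p = 0.224) and without bulk (0.167). Of 12 NRF2 targets 7 rose, among them Hmox1, heme oxygenase (0.77), and 1 fell. Of 20 cholesterol synthesis genes 6 rose and 0 fell, all by less than 0.5.

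Interferon-response genes were called through the bulk library. Of 16 tested, 10 rose and 0 fell with a median log2 difference of 0.59, where 14.0% of all genes rose and 13.9% fell. Isg15, an antiviral ubiquitin-like protein, stood at 180 against 109 CPM in bulk but at 0.48 against 1.26 CPM in control and 0.82 against 1.38 CPM in localized electroporation. By edgeR, 0 of 16 were called against depth-matched cells (3 higher and 1 lower at an unadjusted p under 0.05). In that setting 12.4% of all genes were called higher and 11.1% lower. Without the bulk library, where 8.27% of all genes were called higher and 8.04% lower, 0 of 10 tested were (1 unadjusted), and the Isg15 log2 difference was -1.13. DESeq2 called 0 of 16 (0 unadjusted), against 7.74% of all genes higher and 5.13% lower.

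**Figure D4:**
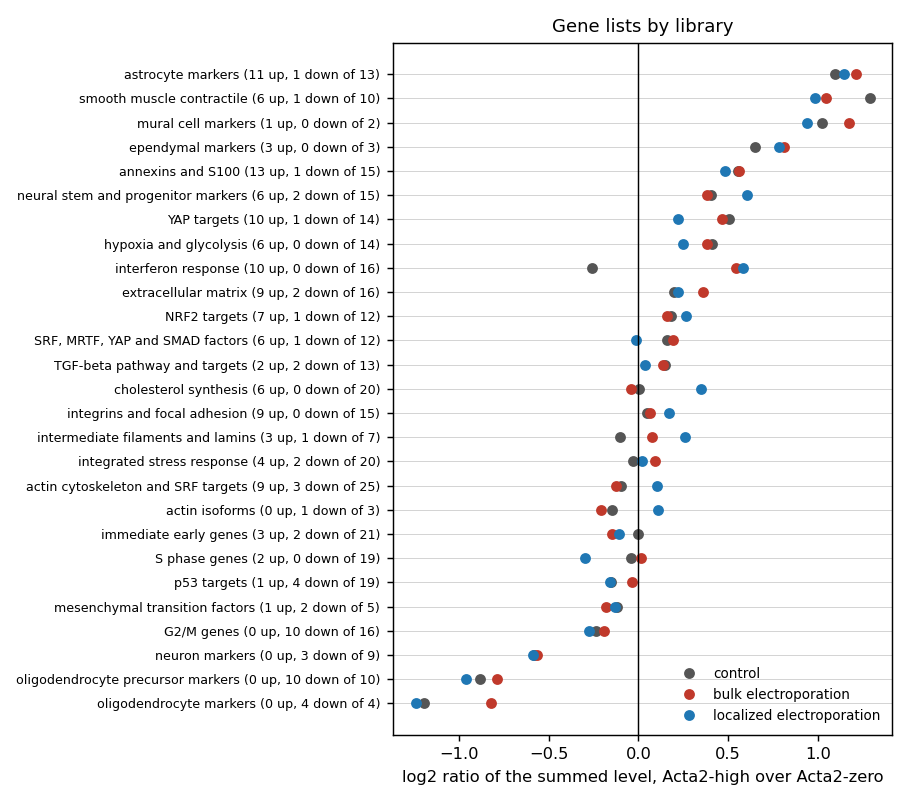
Log2 ratio of the summed level in Acta2-high over Acta2-zero cells (x, pseudocount of 1 CPM) of each gene list with at least 2 tested members (y), one point per library; labels give how many tested members were called higher (up) and lower (down) by edgeR. The astrocyte and contractile lists lay right of 0 in all 3 libraries (1.09 and 1.29 in control) and both oligodendrocyte lists left of 0 (-0.88 and -1.19 in control). The contractile sum leaned on Tagln, which gave 2361 of its 4137 UMIs in Acta2-high and 503 of 12365 in Acta2-zero cells of control.

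Across the treatments, Tagln and Tpm1, abundant members of the contractile list, went opposite ways in the Acta2-high cells. Summed over the list, these cells stood at 1000.3 CPM in control (exact Poisson 95% interval 970 to 1031), 983 after bulk (958 to 1008) and 960 after localized electroporation (905 to 1016), intervals that overlap. The Acta2-zero cells stood at 409, 476 and 485 CPM. Tagln was 571 CPM (548 to 594), 489 (471 to 507) and 395 (360 to 432) in the Acta2-high cells, so it was lowest in the localized library. In the Acta2-zero cells Tagln was 16.6, 16.1 and 28.8 CPM, highest in the localized library. Acta2 itself, by which the cells were chosen, stood at 1715, 1757 and 1505 CPM in the summed Acta2-high cells. Tpm1 was 265 CPM (250 to 281), 313 (299 to 327) and 369 (336 to 405), highest in the localized library, and 243, 290 and 317 CPM in the Acta2-zero cells.

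Other gene lists also differed between libraries. Astrocyte markers summed to 918 CPM (889 to 948) in Acta2-high cells of control, 992 (967 to 1018) after bulk and 2282 (2198 to 2369) after localized electroporation, and to 429, 428 and 1033 CPM in Acta2-zero cells. Gfap stood at 1.93, 2.53 and 37.1 CPM in Acta2-high cells. The integrated stress response list summed to 2491 CPM (2443 to 2540) in control, 1690 (1657 to 1724) after bulk and 1023 (967 to 1082) after localized electroporation, against 2542, 1587 and 1011 CPM in Acta2-zero cells. Interferon-response genes summed to 27.1 CPM (22.3 to 32.6), 1135 (1108 to 1162) and 59.4 (46.4 to 74.7) in Acta2-high cells and to 32.6, 777 and 39.3 CPM in Acta2-zero cells. Localized electroporation was above control by a log2 of 1.10 in Acta2-high and 0.27 in Acta2-zero cells for this list, and Cxcl10, a chemokine, stood at 24.7 against 1.21 CPM in Acta2-high cells (30 and 5 UMIs) and 4.83 against 4.46 CPM in Acta2-zero cells. With 1 library per group these differences have no replicate check.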

How the data were processed

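Single-cell 3' libraries of mouse neural progenitors were analysed, 3 in all. The authors deposited raw UMI counts of 32285 genes in every barcode, empty ones included, without cell annotation. Per the submitters' processing notes, Cell Ranger 6, Seurat 4.0.4 and GRCm38 were used, but a matrix names Cell Ranger 4 in its header. Which annotation release was used is not stated in the sources read. Samples were grouped by the treatment in their labels.

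The members, lists and alternatives were chosen with earlier results of these data known. Counts were summed per library and class (6 sums), filtered (filterByExpr), scaled by TMM and tested with edgeR 4.0.16 (R 4.3.3). Library was a block, which left 2 residual degrees of freedom per gene before the spread was pooled across genes. DESeq2 1.42.0 was an alternative. The named genes were the tested members of the contractile and actin isoform lists, up to 4 per other list with the largest absolute difference, and the 12 highest and 12 lowest differences called with 1 sign in 3 libraries at 50 CPM or more, without predicted, Riken and ribosomal protein genes. A gene this rule chose and a list of genes are not reported here. Srf, Top2a and genes given only by UMI counts lie outside this rule and were chosen after their values were seen. CPM are not TMM-scaled. Log2 ratios per library use a pseudocount of 1 CPM. In a simulation of this comparison with 13286 genes, 80 of 100 genes changed 2-fold, 58 of 100 changed 1.5-fold and 6 of 13086 unchanged genes were called. The simulated counts followed the fitted model and left out the classes' differences in cell depth and in precursor-like cells. Calls that arise from those were therefore not tested. Intervals are at 95%. Depth is that given in the report. Doublets were not removed.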

Additional observations from a re-analysis of the deposited data

Results flagged for a closer look

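Some differences between Acta2-high and Acta2-zero cells had opposite signs in different libraries, counted where they passed 0.2 on the log2 scale in both directions at 50 CPM or more. The summed interferon-response list was at -0.26, 0.55 and 0.58 in the control, bulk and localized libraries. Isg15 was at -0.60, 0.72 and -0.39 in the same order, on 2, 1065 and 1 UMIs in the Acta2-high cells. Actg1, a cytoplasmic actin, was at -0.12, -0.38 and 0.22. With 1 library per treatment these differences between libraries were not tested.

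Barcodes of 1000 to 2999 UMIs, which the cell filter leaves out, also held Acta2-high ones. In bulk electroporation 48 of 571 such barcodes, 8.41% (exact Clopper-Pearson 6.26 to 10.99), were over the Acta2 threshold, above the 3.06% of control, and their Tagln level was 342 CPM on 28 UMIs, against 40.4 CPM in barcodes of the same depth with 0 Acta2 UMIs. At that depth 2 or 3 Acta2 UMIs are enough to pass the threshold, so the share is not comparable with that of cells.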

How the results depend on the processing

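Genes higher and lower, 1862 and 1844, became 912 and 911 above 2000 Acta2 CPM, 749 and 686 after thinning to 3000 UMIs, 173 and 86 without cells holding 3 or more oligodendrocyte-lineage UMIs (which left far fewer cells), 1180 and 1021 without dividing cells, 1159 and 1033 with depth matched and precursor-like cells left out, and 1028 and 681 with DESeq2. Genes lower were 1191 in cells of 8000 to 16000 UMIs and 1145 without precursor-like cells. Leaving out a library gave 1078 to 2132 genes higher (1078 without bulk, 1196 without control) and 935 to 1900 lower (935 without control, 1048 without bulk). Between treatments, no paired analysis was possible because each has 1 library. The Acta2-high and Acta2-zero cells were paired by library in every fit.

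The Acta2-high share in control, bulk and localized electroporation became 13.6%, 17.2% and 5.81% above 500 CPM and 1.49%, 1.97% and 0.238% above 2000. Without cells holding 3 or more oligodendrocyte-lineage UMIs it was 7.40%, 10.7% and 3.30%. That filter kept only 111, 86 and 24 Acta2-high cells among 1500, 804 and 727 cells, so it took out most Acta2-high cells as well. In cells of 8000 to 16000 UMIs the Acta2-high share was 7.42% in control and 8.55% in bulk, without precursor-like cells 6.71% and 8.24%, and after thinning 5.14% in control. The order of the 3 libraries was the same in each of these settings.

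Of 2224 values of 127 named genes under the alternatives, 1894 kept their side of the threshold and their sign, 260 lost a call, 22 gained one, 14 changed sign with a call in either setting and 34 changed sign with a call in neither. Without oligodendrocyte-lineage cells the log2 difference was -0.10 for Atf3, 0.10 for Cenpf, -0.062 for Mvk and 1.94 for S100b. Without precursor-like cells it was 0.31 for Mbp and 0.98 for S100b, and with depth matched too 0.0048 for Cnp, 1.07 for S100b and -0.025 for Vim. Ccne1 was at -0.084 above 2000 CPM and at -0.049 in cells of 8000 to 16000 UMIs, Cenpf at 0.068 without dividing cells, and Isg15 at -0.12 with DESeq2 and between -1.13 (without bulk) and 0.76 when 1 library was left out. The cause of these changes was not tested.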
